A study of Homo sapiens with 8 samples.

Results

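Antigen presentation by major histocompatibility complex (MHC) class I was followed through 9 genes: HLA-B, HLA-C, HLA-E, B2M, TAP1, TAP2, TAPBP, NLRC5 and ERAP1. They were taken by symbol from the deposited gene tables, and 9 of 9 were present among 40693 symbols. TAP2 had 2 entries, of which the one with more counts over the 8 libraries was used. RNA sequencing covered SW620 and SW480, established human lines of colorectal adenocarcinoma that the labels place at Dukes' type C and Dukes' type B. SW620 cells with a hairpin RNA against the transcription factor FOXA2 (shFOXA2) gave 3 libraries, and those with the control hairpin (shNC) gave 3 more. Hairpins in both groups came from a lentiviral vector with a U6 promoter, a puromycin resistance gene and mCherry, and stable populations were selected with puromycin rather than picked as clones, per the labels. Each untreated line gave 1 library. Labels name 2 FOXA2 target sequences, and the titles of the shFOXA2 libraries carry a number that points to the first, without spelling it out. Nothing in the sources used here says that replicates came from separate cultures, so p-values measure the spread between these libraries, which may be technical.

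Class I molecules show peptides from inside the cell to CD8+ T cells. Proteasomes cut proteins, the TAP1 and TAP2 transporter carries the peptides into the endoplasmic reticulum, ERAP1 trims them, and TAPBP (tapasin) holds the empty heavy chain with its partner B2M at the transporter until a peptide fits. NLRC5 is the transactivator that drives most of these genes, interferons raise them, and colorectal tumours can lose class I from the cell surface through defects in B2M, the transporter or NLRC5.

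Total counts were 95935348 in SW620 and 72323506 in SW480, and 7478411 to 13076566 in the 6 hairpin libraries. Mitochondrial genes took 11.1% and 11.7% of counts in the untreated lines and 4.46% to 4.82% in the hairpin libraries, and these sets were not compared by a test. Summed markers of colorectal epithelium reached 6065 to 8772 CPM (counts scaled to the library total) in the 8 libraries, although KRT20 was at 0 in SW480. Summed leukocyte markers stayed at 1.42 to 4.51 CPM, with CD2, MS4A1 and TYROBP at 0 in every library and PTPRC at 0 in both untreated lines. Fibroblast and endothelial markers summed to 16.6 to 22.0 CPM in shFOXA2, against 11.6 to 13.2 in shNC, 10.4 in SW620 and 4.01 in SW480. COL1A2 and COL3A1 were at 0 in all 8 libraries. LUM held the most counts of this list in SW620 (715) and in each hairpin library (137, 93 and 143 in shFOXA2, 120, 107 and 111 in shNC), and had 0 in SW480. The part of these markers in the results was not tested. FOXA2 stood at 30.3, 29.3 and 22.2 CPM in shFOXA2, from here on by TMM-scaled totals, against 52.5, 49.0 and 51.9 CPM in shNC. Its log2 fold change was -0.91 (SE 0.09, adjusted p = 6.88e-10).

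Set per length, on the authors' RPKM scale, the class I heavy chains and B2M were the most abundant of the 9 genes in the hairpin libraries, and NLRC5 was the scarcest in each of the 8 libraries. Such orders between genes rest on the listed lengths, which may not be those of the RNAs present. In all 6 hairpin libraries the order of levels was HLA-C, B2M, HLA-E, HLA-B, TAP2, TAPBP, TAP1, ERAP1 and NLRC5. No neighbouring pair in that order overlapped within shFOXA2 or within shNC. The closest pair was TAP1 and ERAP1 in shFOXA2, at 4.84 ± 0.10 and 4.35 ± 0.27 RPKM (SD, n = 3). HLA-C reached 120 ± 1.53 RPKM in shFOXA2 and 153 ± 4.01 RPKM in shNC (SD, n = 3 each). NLRC5 lay at 0.371 ± 0.04 RPKM in shFOXA2 and 0.535 ± 0.14 RPKM in shNC.

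The untreated lines, with 1 library each, ordered the genes differently. In SW620 the levels ran from B2M (138 RPKM) and HLA-C (88.5 RPKM) through TAPBP (22.4 RPKM), HLA-B (19.1 RPKM), HLA-E (16.8 RPKM), TAP2 (9.65 RPKM), TAP1 (6.01 RPKM) and ERAP1 (4.96 RPKM) to NLRC5 (0.503 RPKM). In SW480 they ran from B2M (79.3 RPKM) and HLA-C (66.6 RPKM) through HLA-B (22.8 RPKM), HLA-E (19.3 RPKM), TAPBP (19.2 RPKM), TAP2 (10.8 RPKM), ERAP1 (8.82 RPKM) and TAP1 (7.16 RPKM) to NLRC5 (0.548 RPKM). HLA-E and TAPBP could not be ordered in SW480. On this scale B2M therefore stood above HLA-C in both untreated lines and below it in every hairpin library. The listed lengths were 3151 bases for B2M and 2507 bases for HLA-C, and other lengths could change which of them stands higher. TAPBP showed the widest gap between the sets of libraries, at 22.4 and 19.2 RPKM in untreated SW620 and SW480 and at 8.33 to 9.52 RPKM in the hairpin libraries. Depth and the share of mitochondrial counts differed between those sets as well, so a hairpin vector and a library set cannot be told apart.

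**Figure D1:**
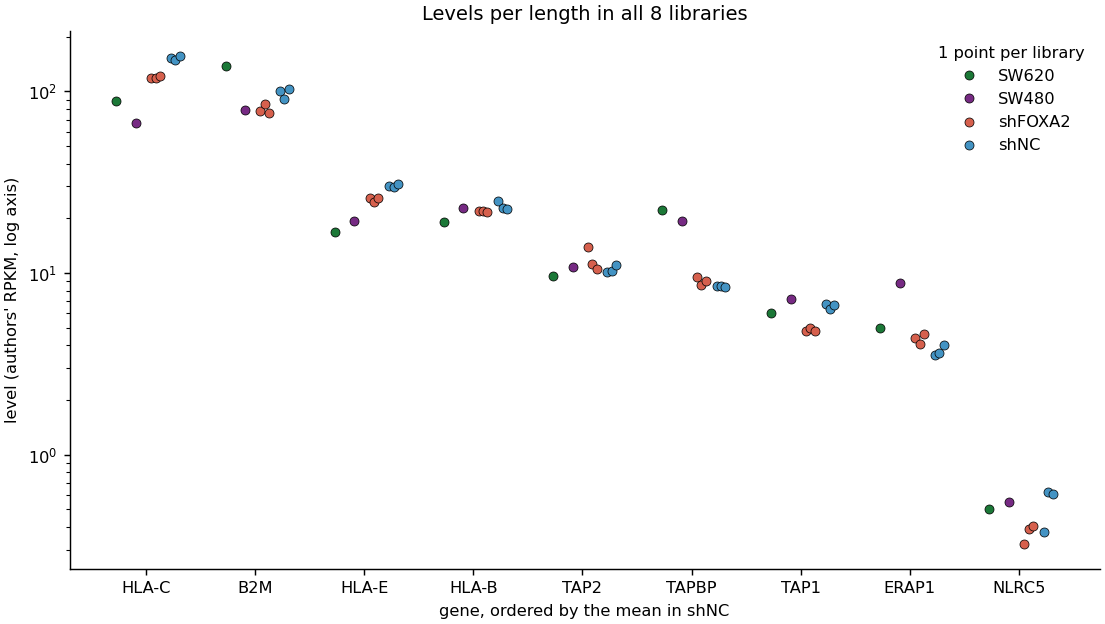
Level per length (authors' RPKM, log axis) of the 9 class I genes in untreated SW620 and SW480 (1 library each) and in SW620 with the FOXA2 or control hairpin (3 libraries each); each point is 1 library. HLA-C and B2M lie highest and NLRC5 lowest, and TAPBP is at 22.4 and 19.2 RPKM in the untreated lines but at 8.33 to 9.52 RPKM in the hairpin libraries.

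Lowering of FOXA2 went with lower RNA of 5 of the 9 genes and higher RNA of 1. HLA-C, HLA-E, B2M, TAP1 and NLRC5 fell in shFOXA2 relative to shNC, ERAP1 rose, and HLA-B, TAP2 and TAPBP did not pass the test (edgeR quasi-likelihood, Benjamini-Hochberg adjusted p under 0.05 over 16100 genes). Of all genes tested, 39% were called, 19.2% higher and 19.8% lower in shFOXA2. The groups did not overlap for 7 of the 9 genes, against 48.7% of all genes tested. The changes were small, with log2 fold changes of -0.52 to 0.24 and a median of -0.24, while the median over all genes tested was 0.005 and the median size among called genes was 0.36. All 9 genes passed the filter on low counts. In these bulk libraries, fewer cells that make an RNA and less RNA per cell cannot be told apart.

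**Figure D2:**
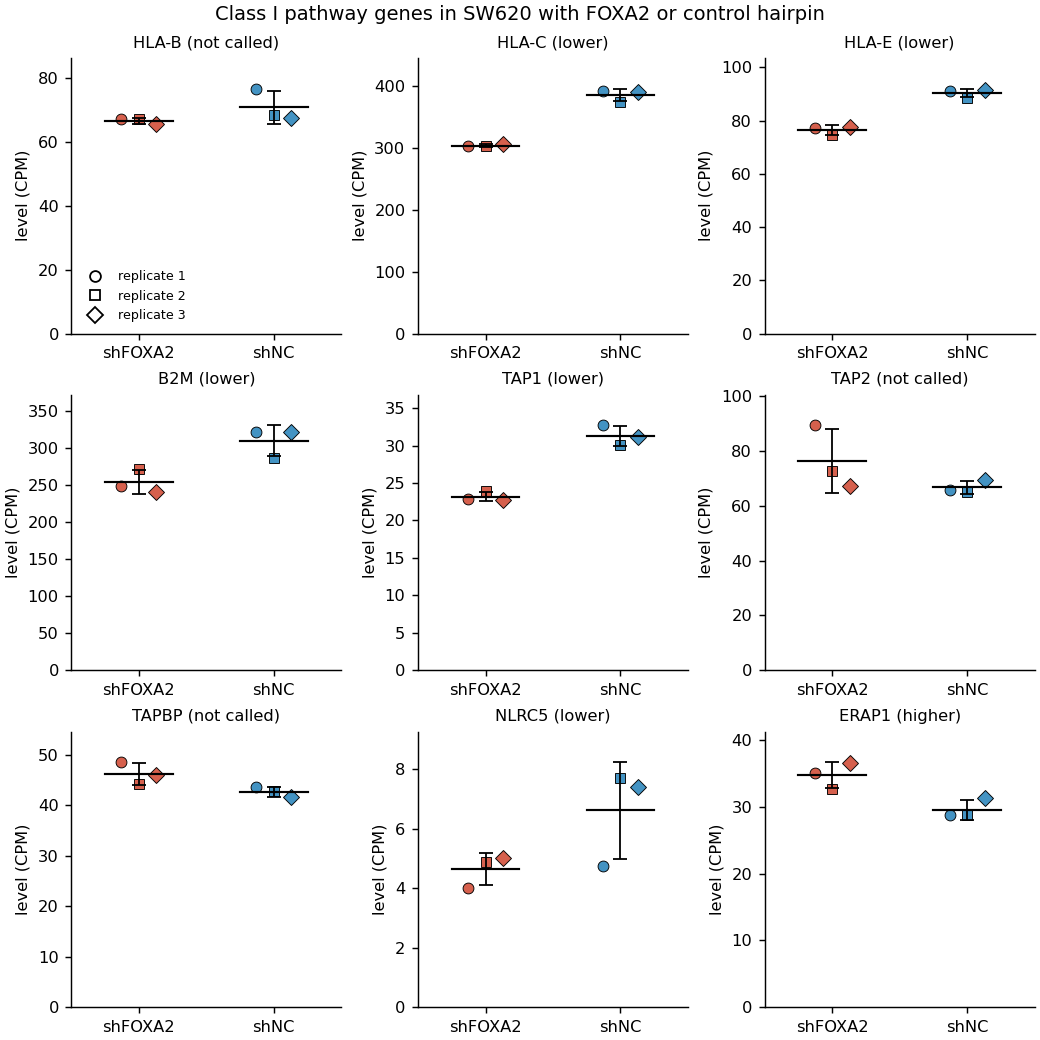
Level (CPM of the TMM-scaled library total, axes from 0) of each class I gene in the 3 shFOXA2 and 3 shNC libraries; bars are the mean and SD, and each title gives the call. HLA-C, HLA-E, B2M and TAP1 lie lower in every shFOXA2 library than in any shNC library, while NLRC5 and TAP2 overlap between the groups.

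The heavy chains carry the peptide groove. HLA-B and HLA-C are classical, highly variable chains that present to T cells, and HLA-E shows leader peptides of other class I chains to the CD94/NKG2A receptor of natural killer cells. All 3 lie in the MHC of chromosome 6, where GENCODE v29 (GRCh38) places HLA-C (ENSG00000204525.10) at chr6:31268749-31272130 on the minus strand, HLA-E (ENSG00000204592.5) at chr6:30489467-30494205 on the plus strand, and HLA-B (ENSG00000234745.5) at chr6:31269491-31357188 on the minus strand, a span that overlaps HLA-C. The HLA chains share long stretches of sequence and vary between people, and how reads that match several of them were counted is not given, so their separate values are uncertain. HLA-C and HLA-B are shown from 250 bases before to 50 bases after their RefSeq starts (GRCh38.p14, minus strand, chr6:31272043-31272342 and chr6:31357130-31357429), because these neighbours gave different results. Capitals mark matches on either strand to CCAAT, the box bound by NF-Y, to TGACG, the core of a cyclic AMP element, and to GAANNGAAA, an interferon-type repeat added to the search after the letters had been read.
HLA-C: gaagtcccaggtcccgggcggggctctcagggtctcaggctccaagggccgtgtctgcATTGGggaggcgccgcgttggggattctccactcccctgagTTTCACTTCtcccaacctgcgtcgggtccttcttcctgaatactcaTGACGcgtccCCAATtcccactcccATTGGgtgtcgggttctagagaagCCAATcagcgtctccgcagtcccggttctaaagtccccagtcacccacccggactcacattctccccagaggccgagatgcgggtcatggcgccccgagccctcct
HLA-B: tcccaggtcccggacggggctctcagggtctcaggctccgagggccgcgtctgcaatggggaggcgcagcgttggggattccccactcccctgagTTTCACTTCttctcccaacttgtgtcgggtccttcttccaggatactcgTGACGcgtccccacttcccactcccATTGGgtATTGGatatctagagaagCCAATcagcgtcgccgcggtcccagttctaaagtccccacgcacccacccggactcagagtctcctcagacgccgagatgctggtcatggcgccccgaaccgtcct
Over 296 aligned bases the pair was identical at 269, or 90.9%. TGACG and the interferon-type repeat occurred once in each, at 105 and 151 bases before the start of HLA-C and at 106 and 155 bases before that of HLA-B. CCAAT occurred 4 times in HLA-C and 3 times in HLA-B.

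HLA-C stood at 302, 302 and 306 CPM in shFOXA2, against 391, 373 and 390 CPM in shNC. Every shFOXA2 library lay below every shNC library. Its log2 fold change was -0.34 (SE 0.04, adjusted p = 5.45e-09). HLA-E stood at 77.4, 74.4 and 77.5 CPM in shFOXA2, against 91.2, 88.6 and 91.4 CPM in shNC, again without overlap. The log2 fold change of HLA-E was -0.24 (SE 0.05, adjusted p = 0.000148).

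HLA-B had 66.9, 67.1 and 65.4 CPM in shFOXA2, against 76.5, 68.2 and 67.4 CPM in shNC. The groups did not overlap, but shNC replicates 2 and 3 lay close to the shFOXA2 libraries and shNC replicate 1 stood apart. The log2 fold change was -0.09 (SE 0.06, adjusted p = 0.230), with an interval of -0.20 to 0.02, and -0.04 without shNC replicate 1. The count of HLA-C per count of HLA-B, which no scaling of the library can alter, was 4.51, 4.50 and 4.67 in shFOXA2, against 5.12, 5.47 and 5.78 in shNC. All 3 shFOXA2 ratios were lower, a change of the mean of -16.3%, with a two-sided exact permutation p of 0.1 (0.143 after Benjamini-Hochberg adjustment over the 10 ratios computed). That p is the smallest that 3 libraries against 3 allow, so no ratio could pass 0.05.

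B2M, the invariant light chain that every class I heavy chain needs to leave the endoplasmic reticulum, lies outside the MHC at chr15:44711487-44718877 on the plus strand (ENSG00000166710.13). Its RefSeq promoter (chr15:44711267-44711566) is shown for comparison with the heavy chains. Capitals mark an interferon-type repeat (GAAA repeated after any 2 bases), which occurred as an overlapping pair, and the same CCAAT and TGACG letters as above.
B2M: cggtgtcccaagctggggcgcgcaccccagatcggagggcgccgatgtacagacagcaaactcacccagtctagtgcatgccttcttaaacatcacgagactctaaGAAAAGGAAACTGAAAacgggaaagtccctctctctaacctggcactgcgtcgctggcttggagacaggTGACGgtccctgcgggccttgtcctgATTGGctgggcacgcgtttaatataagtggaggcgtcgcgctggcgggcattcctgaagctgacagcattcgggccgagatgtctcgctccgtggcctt
The pair of repeats began 144 and 138 bases before the start, TGACG 75 bases before it and CCAAT 49 bases before it.

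B2M had 249, 272 and 241 CPM in shFOXA2, against 322, 286 and 322 CPM in shNC. The groups did not overlap, although shFOXA2 replicate 2 and shNC replicate 2 were near each other. The log2 fold change was -0.29 (SE 0.05, adjusted p = 2.13e-05). The B2M count per HLA-C count was 0.825, 0.900 and 0.788 in shFOXA2, against 0.821, 0.768 and 0.827 in shNC. These ratios overlapped between the groups (two-sided exact permutation p = 0.5).

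TAP1 and TAP2 are the subunits of the peptide transporter, and only the pair together moves peptides. They are neighbours in the MHC, TAP1 (ENSG00000168394.9) at chr6:32845209-32853978 and TAP2 (ENSG00000204267.9) at chr6:32821833-32838780, both on the minus strand. TAP1 starts 488 bases from PSMB9, a subunit of the immunoproteasome that is read in the opposite direction, and in GENCODE v29 the span of PSMB9 (chr6:32844136-32859585) covers TAP1. Libraries were made with a directional kit, but the sources used here do not say if counting used the strand, so reads in that overlap may be shared. The first of 2 RefSeq promoter entries for TAP1 (chr6:32853655-32853954, minus strand) faces PSMB9 and is shown because TAP1 and TAP2 gave different results.
TAP1: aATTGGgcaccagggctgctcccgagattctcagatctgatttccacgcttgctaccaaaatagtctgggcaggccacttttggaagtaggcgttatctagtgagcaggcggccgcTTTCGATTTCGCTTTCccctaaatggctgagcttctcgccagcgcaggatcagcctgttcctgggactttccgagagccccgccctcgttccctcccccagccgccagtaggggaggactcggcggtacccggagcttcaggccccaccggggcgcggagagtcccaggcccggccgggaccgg
Capitals mark CCAAT at its far end and an overlapping pair of the GAAA repeats, which began 134 and 128 bases before the start. TAP2 held 1 such repeat, which began 58 bases before its start, and TGACG 35 bases before it.

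TAP1 had 22.9, 23.9 and 22.7 CPM in shFOXA2, against 32.7, 30.1 and 31.1 CPM in shNC. Every shFOXA2 library was lower than every shNC library. The log2 fold change was -0.43 (SE 0.08, adjusted p = 3.85e-05), the largest in size among the 5 genes whose groups did not overlap and that were called. TAP2 had 89.4, 72.8 and 67.1 CPM in shFOXA2, against 65.9, 65.0 and 69.4 CPM in shNC. TAP2 overlapped between the groups, and shFOXA2 replicate 1 was the one library that stood high. Its log2 fold change was 0.20 (SE 0.10, adjusted p = 0.157), and 0.06 (adjusted p = 0.509) without shFOXA2 replicate 1. Without shFOXA2 replicate 3 it was 0.28 and was called (adjusted p = 0.00314), as it was with no filter on low counts (0.17, adjusted p = 0.0149).

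The TAP1 count per TAP2 count was 0.256, 0.328 and 0.339 in shFOXA2, against 0.496, 0.463 and 0.448 in shNC. All 3 shFOXA2 ratios were lower, a change of the mean of -34.4% (two-sided exact permutation p = 0.1, the smallest possible). Untreated SW620 (0.463) and SW480 (0.493) lay within the range of shNC for this ratio. They lay outside it for TAP1 per TAPBP (0.252 in SW620 and 0.349 in SW480), for HLA-C per HLA-B (3.87 in SW620 and 2.43 in SW480) and for B2M per HLA-C (1.97 in SW620 and 1.5 in SW480). A second entry under the symbol TAP2 (ENSG00000250264.1), which GENCODE v29 names AL669918.1 and places at chr6:32813767-32838822 across TAP2 and HLA-DOB, held 45.8% to 64.3% as many counts as the main entry. It reached 57.5 CPM in shFOXA2 replicate 1 and 35.5 to 39.5 CPM in the other hairpin libraries, and with it added to TAP2 the mean ratio of TAP1 to TAP2 differed by -34.5% in shFOXA2.

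**Figure D3:**
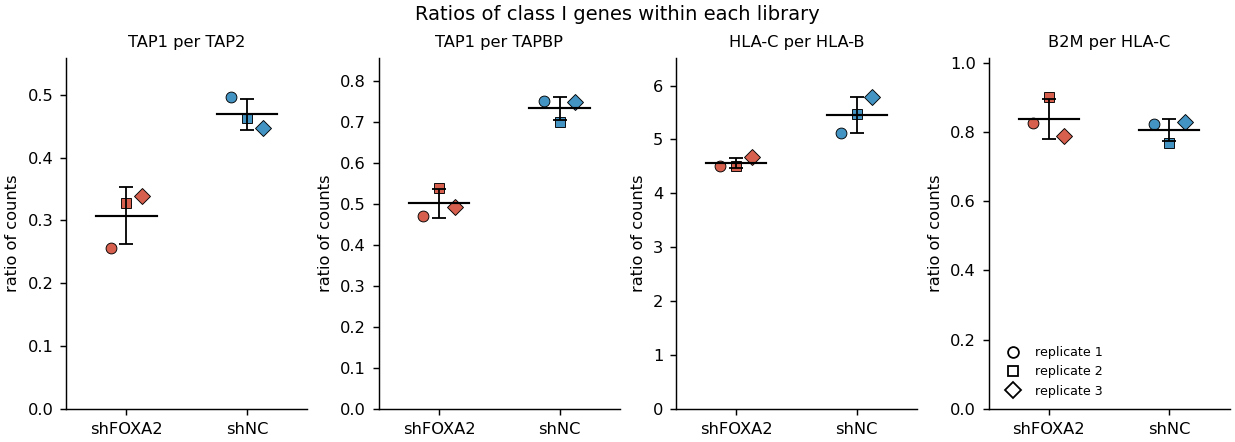
Count of 1 gene per count of another within each library (axes from 0), for the 3 shFOXA2 and 3 shNC libraries, with the mean and SD. TAP1 per TAP2, TAP1 per TAPBP and HLA-C per HLA-B lie lower in every shFOXA2 library, and B2M per HLA-C overlaps between the groups.

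TAPBP, which bridges the heavy chain and the transporter, lies at chr6:33299694-33314387 on the minus strand (ENSG00000231925.7). It had 48.6, 44.3 and 46.1 CPM in shFOXA2, against 43.6, 42.9 and 41.6 CPM in shNC. The groups did not overlap, yet the log2 fold change of 0.12 did not pass the test (SE 0.07, adjusted p = 0.163, interval -0.01 to 0.25). The TAP1 count per TAPBP count was 0.472, 0.540 and 0.493 in shFOXA2, against 0.750, 0.701 and 0.748 in shNC, a change of the mean of -31.5% (exact permutation p = 0.1). The RefSeq promoter of TAPBP held an overlapping pair of the GAAA repeats, which began 20 and 14 bases before the start. It was the one promoter of the 9 genes' entries with an exact match to GGGANTTCC. That is a form of the site of NF-kappaB, and other forms were not searched.

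ERAP1, the aminopeptidase that trims peptides to class I length, lies at chr5:96760810-96808100 on the minus strand (ENSG00000164307.8). It had 35.1, 32.7 and 36.6 CPM in shFOXA2, against 28.7, 28.8 and 31.3 CPM in shNC. Each shFOXA2 library was higher than each shNC library. The log2 fold change was 0.24 (SE 0.08, adjusted p = 0.0153). The rise no longer passed once shFOXA2 replicate 3 was set aside (0.19, adjusted p = 0.1). Setting aside shNC libraries did the same, for replicate 1 (0.20, adjusted p = 0.0590) as for replicate 2 (0.21, adjusted p = 0.0599), as did leaving out both libraries numbered 1 (0.21, adjusted p = 0.0631) and the DESeq2 test (0.23, adjusted p = 0.0955).

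NLRC5 lies at chr16:56989485-57083531 on the plus strand (ENSG00000140853.11) and was counted thinly, with 48, 36 and 50 counts in shFOXA2 and 61, 100 and 91 counts in shNC. That gave 4.01, 4.89 and 5.01 CPM in shFOXA2, against 4.75, 7.69 and 7.41 CPM in shNC. The groups overlapped, because shNC replicate 1 lay among the shFOXA2 libraries. The log2 fold change was -0.52 (SE 0.19, adjusted p = 0.0259). Setting aside any of 3 libraries ended the call: shFOXA2 replicate 1 (-0.42, adjusted p = 0.131), and in shNC replicate 2 (-0.40, adjusted p = 0.153) or replicate 3 (-0.44, adjusted p = 0.126). It was not called in DESeq2 (-0.53, adjusted p = 0.131) or limma-voom (-0.50, adjusted p = 0.0815).

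A hairpin can also act on RNAs that match its seed. The 3' untranslated regions (UTRs) of GENCODE v29 were searched for AACACGT and ACACGTA, 7-base stretches inside the first FOXA2 target. Both stop short of the end of the target. Where the seed of the processed hairpin begins is not known here, so a match to these stretches may not be a seed match. NLRC5 was the one of the 9 genes with a match, against 5.32% of 19560 genes. The target and the NLRC5 stretch, 281 bases into its 3' UTR, are shown. Capitals mark the letters of both searched stretches in the target and the match to ACACGTA in NLRC5. The part of this match in the NLRC5 value was not tested.
Hairpin target: gaacggcatgAACACGTAcat
NLRC5: atgcatgACACGTAcggttat

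Promoter entries of RefSeq were held for 7 of the 9 genes, all but HLA-E and NLRC5. A gene counted as matched if any of its entries matched, and TAP1 and ERAP1 had 2 entries each. The percentages of all promoters are of single entries, so the shares are not in like units. CCAAT was found in 5 of the 7 genes and in 34.6% of 35116 promoters of the same length, and TGACG in 4 of 7 and 24.6%. The repeat of GAAA after any 2 bases was found in B2M, TAP1, TAP2, TAPBP and ERAP1, 5 of 7, and in 3.57% of all promoters. Its relative GAANNGAAA was found in HLA-B, HLA-C, TAP2 and ERAP1, 4 of 7, and in 7.66% of all. The STAT-type stretch TTCNNNGAA was found in 1 of 7, the second TAP1 entry, and in 7.66% of all, and GGGANTTCC in 1 of 7 and 1.85%. The forkhead stretches TGTTTAC and TATTTAC were found in 0 of 7, and in 3.42% and 2.67% of all promoters. These matches describe letters in a window of 300 bases and are not sites of binding. The GAAA repeat was found in genes that fell (B2M, TAP1) and in genes that did not (TAPBP, TAP2, ERAP1). HLA-C, which fell, and HLA-B, which was not called, held only GAANNGAAA, which was added after the letters had been read. The part of these repeats in the changes was not tested.

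**Figure D4:**
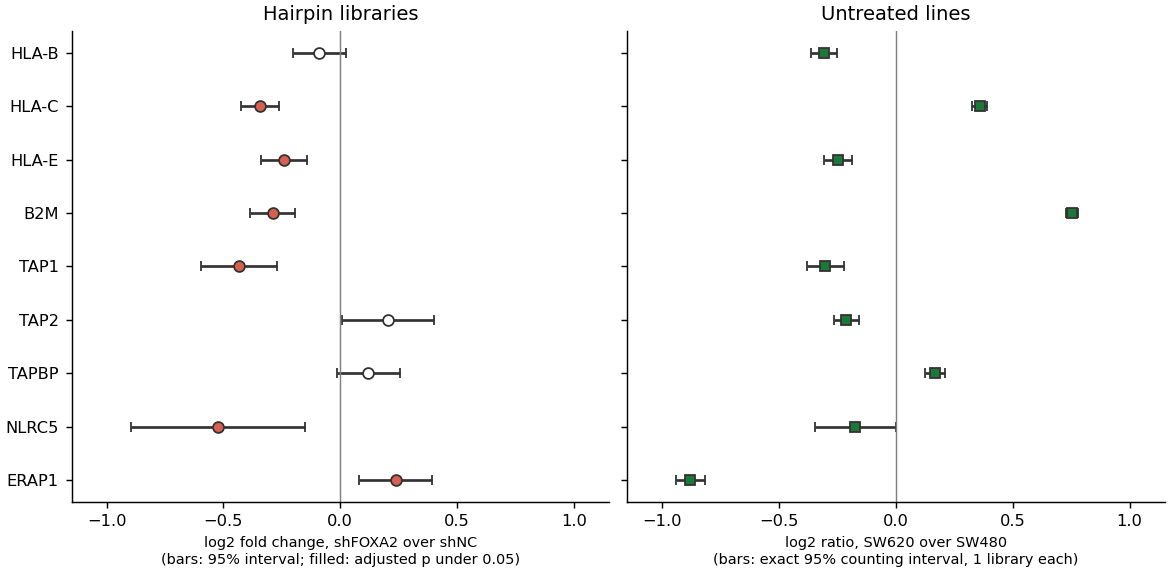
Left, log2 fold change of shFOXA2 over shNC for each gene with its 95% interval, filled where the adjusted p is under 0.05; right, log2 ratio of SW620 over SW480 with its exact 95% counting interval (1 library each, no test). TAP1 and NLRC5 lie furthest below 0 on the left, and B2M and ERAP1 lie furthest from 0 on the right.

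Between the untreated lines, SW620 held more B2M, HLA-C and TAPBP RNA and SW480 more HLA-B, HLA-E, TAP1, TAP2 and ERAP1 RNA, but no gene differed by 2-fold, and NLRC5 could not be separated. With 1 library per line there is no test, and the intervals cover counting error only. B2M was at 430 CPM in SW620 and 255 CPM in SW480, a ratio of 1.68 (95% interval 1.66 to 1.71). HLA-C was at 219 CPM in SW620 and 170 CPM in SW480, a ratio of 1.28 (1.25 to 1.31). ERAP1 differed most in the other direction, at 38.8 CPM in SW620 and 71.4 CPM in SW480, 1.84-fold higher in SW480 (1.76 to 1.92).

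TAPBP was at 111 CPM in SW620 and 99.2 CPM in SW480, a ratio of 1.12 (1.09 to 1.16). HLA-B, HLA-E, TAP1 and TAP2 were higher in SW480 by smaller factors than ERAP1. HLA-B had 56.6 CPM in SW620 and 70.0 CPM in SW480 (1.24-fold higher in SW480), and HLA-E had 49.2 CPM in SW620 and 58.4 CPM in SW480 (1.19-fold). TAP1 had 28.1 CPM in SW620 and 34.7 CPM in SW480 (1.23-fold higher in SW480), and TAP2 had 60.7 CPM in SW620 and 70.3 CPM in SW480 (1.16-fold). NLRC5 was at 6.15 CPM in SW620 and 6.93 CPM in SW480, and its interval for SW480 over SW620, 0.998 to 1.27, spanned 1 at this depth. On the log2 scale with a pseudocount of 1, the median ratio over the 9 genes was -0.21 and that over 21343 genes was 0.02. None of the 9 genes reached 2-fold, against 16.8% of genes, and none reached 4-fold, against 5.14%. FOXA2 itself was at 81.0 CPM in SW620 and 4.50 CPM in SW480.

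Beyond the 9 genes, 92 genes in 12 lists covered the other steps of the pathway, and 76 of them were tested. In shFOXA2, 21 rose and 11 fell, with a median log2 fold change of 0.07. These 32 of 76 called genes make a share near the 39% called among all genes tested. The highest list median, 0.83, belonged to the ligands of NKG2D, the activating receptor by which natural killer and T cells sense stressed cells. Of 7 tested ligands, 5 rose and 0 fell. RAET1L was at 19.7, 21.5 and 18.9 CPM in shFOXA2, against 6.07, 6.31 and 7.57 CPM in shNC (log2 fold change 1.59, SE 0.12, adjusted p = 3.51e-14). ULBP2 averaged 10.1 ± 1.21 CPM in shFOXA2 and 4.31 ± 0.32 CPM in shNC (SD, n = 3 each), and MICA averaged 15.6 ± 1.83 CPM in shFOXA2 and 8.75 ± 0.61 CPM in shNC. RAET1L and ULBP2 are closely related copies, and reads may have been split between them. MICB and ULBP1 did not pass the test, at 0.16 and 0.23 on the log2 scale.

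The heavy chains HLA-F and HLA-G did not pass the test. Of the class I-like partners of B2M, HFE, which regulates iron uptake, fell (-0.40, adjusted p = 0.0178) and MR1, which presents vitamin B metabolites, rose (0.73, adjusted p = 0.0204). MR1 was counted thinly, with 32, 31 and 30 counts in shFOXA2 and 23, 25 and 26 counts in shNC. Scaled, these were 2.68, 4.21 and 3.00 CPM in shFOXA2, against 1.79, 1.92 and 2.12 CPM in shNC. The 5 CD1 genes, whose products present lipids, had 0 or 1 counts in every library.

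Of the immunoproteasome and its PA28 activator, 0 rose and 2 fell of 5, a share near the 39% called among all genes. PSMB8 had a log2 fold change of -0.28 (adjusted p = 0.0288) and PSMB9, the head-to-head neighbour of TAP1, one of -0.59 (adjusted p = 0.0423) at 2.46 ± 0.61 CPM in shFOXA2 and 3.75 ± 0.50 CPM in shNC (SD, n = 3 each). PSMB9 had only 36, 19 and 18 counts in shFOXA2 and 41, 54 and 48 counts in shNC. The TAP1 count per PSMB9 count was 7.61, 9.26 and 12.6 in shFOXA2, against 10.2, 7.24 and 7.96 in shNC. These ratios overlapped between the groups (exact permutation p = 0.6). With so few PSMB9 counts the overlap does not show that TAP1 and PSMB9 moved together. The standard catalytic subunits PSMB5, PSMB6 and PSMB7 did not pass the test, with log2 fold changes of -0.06 to 0.02.

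Chaperones of class I folding and loading had 3 of 7 higher and 0 lower, again near that 39%. These were UGGT1, which checks the fold of glycoproteins (0.38, adjusted p = 1.08e-08), the general chaperone HSPA5 (0.33, adjusted p = 2.71e-08), and PDIA3, the ERp57 of the loading complex (0.17, adjusted p = 0.00175). Calreticulin (CALR) and calnexin (CANX) were at 0.01 and -0.03 on the log2 scale and did not pass the test. Of 8 other peptidases 2 rose and 2 fell, among them THOP1, which destroys cytosolic peptides (-0.27, adjusted p = 0.000184).

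Factors of the class I promoters had 1 of 13 higher and 3 lower, while 19.2% of all genes tested were called higher and 19.8% lower. The RFX complex, which binds the X box of these promoters, did not move as a unit: RFX5 rose (0.23, adjusted p = 0.00312) while RFXAP (-0.62, adjusted p = 0.00217) and RFXANK (-0.26, adjusted p = 0.00414) fell. Among interferon receptors and JAK-STAT genes, 5 of 12 rose and 0 fell, a share also near the 39% of all genes, including STAT2 (0.35, adjusted p = 0.000700), its partner IRF9 (0.49, adjusted p = 0.00814) and PTPN2, a phosphatase that dampens the same signal (0.36, adjusted p = 4.25e-06). SOCS3, a feedback inhibitor, was at 174 CPM in shFOXA2 replicate 1 and 36.0 CPM in shNC replicate 1, against 8.70 to 11.5 CPM in the other hairpin libraries. That is the same shFOXA2 library in which TAP2 stood high.

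Class I turnover had 3 of 7 higher and 2 lower, while 19.2% of all genes tested were called higher and 19.8% lower. The ubiquitin ligase TMEM129 was at 28.3, 30.0 and 29.4 CPM in shFOXA2, against 57.3, 58.0 and 57.8 CPM in shNC (-0.98, SE 0.07, adjusted p = 1.81e-15). DERL1, with which it removes proteins from the endoplasmic reticulum, fell too (-0.64, adjusted p = 9.46e-11), and SEL1L of another such complex rose (0.24, adjusted p = 0.000205). Of the MHC class II genes, 8 of 13 were too low to test and 1 of 5 tested rose, the protease CTSS at 3.10 ± 0.39 CPM in shFOXA2 and 1.07 ± 0.35 CPM in shNC (SD, n = 3 each, adjusted p = 5.73e-05). EZH2, of the repressive complex PRC2, fell by 0.13 on the log2 scale (adjusted p = 0.0318), and its partners EED and SUZ12 did not pass the test.

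**Figure D5:**
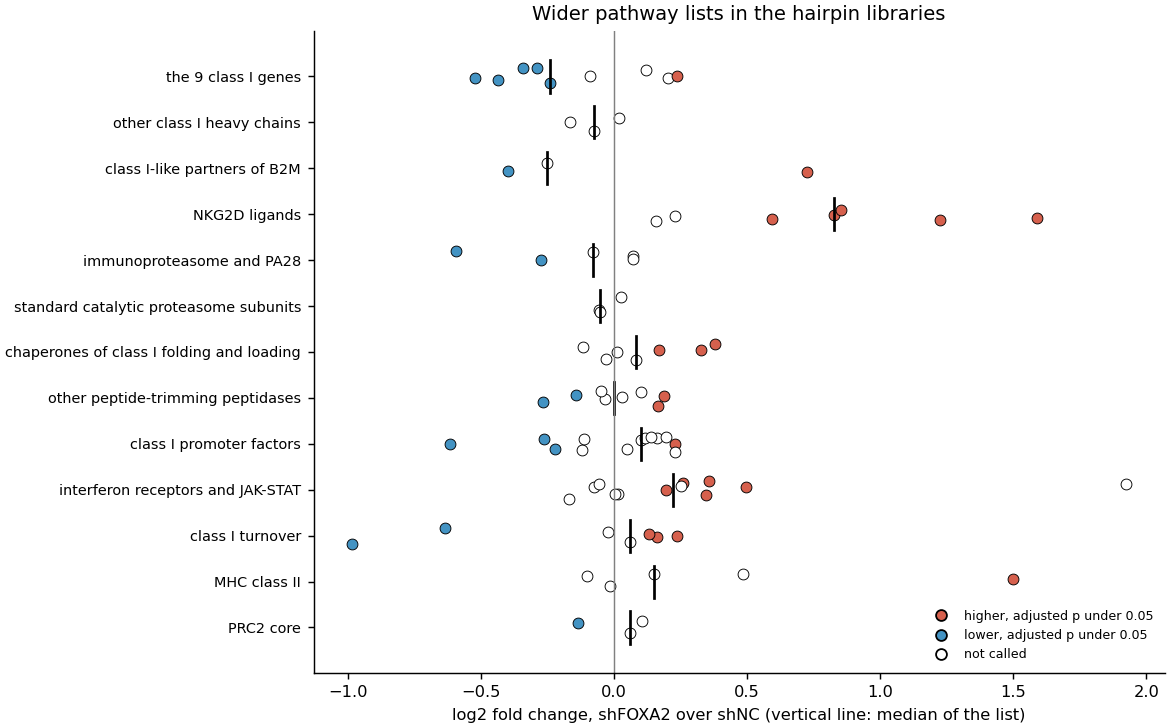
Log2 fold change of shFOXA2 over shNC for the 9 class I genes and for each tested gene of 12 pathway lists; points are genes, coloured by their call, and vertical lines are list medians. The NKG2D ligands have the highest median (0.83), and the 9 class I genes have a median of -0.24.

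Between the lines, on the log2 scale with a pseudocount of 1 CPM, the 2-fold mark was passed by 10 of the 81 pathway genes with enough counts, against 16.8% of all genes. Of these 10, 4 were higher in SW620 and 6 in SW480. Ratios without a pseudocount, as given from here on, put 5 more past 2-fold: HLA-DMB (2.52-fold) and HLA-DOB (2.54-fold) higher in SW620, and MR1 (2.20-fold), ULBP1 (2.03-fold) and HLA-DRA (3.20-fold, from 9 counts in SW620 and 21 in SW480) higher in SW480. The highest ratio was that of RAET1L, at 727 counts in SW620 and 67 counts in SW480, a ratio of 7.90 (95% interval 6.15 to 10.3). HFE was 4.45-fold (3.97 to 4.98) and PSMB10, an immunoproteasome subunit, 2.39-fold (2.21 to 2.58) higher in SW620. CD74, the class II invariant chain, had 75 counts in SW620 and 1156 counts in SW480, 21.2-fold higher in SW480 (16.7 to 27.1). ERAP2, the close relative of ERAP1, was 2.83-fold higher in SW480 (2.57 to 3.11), in the same direction as ERAP1.

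TAPBP, ERAP1 and HLA-C varied most over the 8 libraries, by 1.42, 1.32 and 1.16 on the log2 scale of CPM with a pseudocount of 1. Their nearest profiles among 10699 genes, by root mean square difference of centred log2 values over the 8 libraries, were POU2F1 for TAPBP (0.07), PURB for ERAP1 (0.05) and XXbac-BPG32J3.20 for HLA-C (0.05). Next came MDM2 and ZBED6 for TAPBP, AKAP11 and ZMYM2 for ERAP1, and PLEKHJ1 and EIF2D for HLA-C. None of these is among the pathway genes listed, and the 8 libraries share the gap in depth between untreated and hairpin sets.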

How the data were processed

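The deposited tables, 1 per library, hold for 42713 entries a versioned Ensembl identifier, a symbol, the raw counts, a length and the authors' RPKM. Dividing counts by listed length and table total returned the deposited RPKM for 100% of genes with more than 20 counts (relative difference under 1e-04). HOMER and hg19 stand in the submitters' processing notes with no role stated, and aligner, counter and annotation are not given in the sources consulted. Where a symbol repeated (256 symbols), the entry with the highest summed count was used.

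The deposited counts of shFOXA2 and shNC were compared with the quasi-likelihood test of edgeR 4.0.16 in R 4.3.3 (TMM scaling, default filter, robust, two-sided, Benjamini-Hochberg adjustment over all genes). The SE is the size of the log2 fold change divided by the square root of F, and intervals span 1.96 SE either way. Untreated lines were compared, untested, where the higher of them had 20 counts or more, by the ratio of TMM-scaled CPM with an exact 95% interval. The log2 ratios between the lines used a pseudocount of 1 CPM. The method was tested on simulated counts. The biological coefficient of variation was 6.59%. At the floor of 3 counts, levels were 0.0313 CPM (SW620) and 0.401 CPM (shFOXA2 replicate 2). Chi-square per degree of freedom between replicates was 1.67 to 4.59, highest where replicate 1 of a group took part, above counting noise for every pair.

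The 9 genes, the 12 lists, the motifs and the rule for named genes (per list, up to 3 by p in the hairpin comparison and 2 by ratio between the lines) were chosen with earlier results of these data known, so a list's count is no independent evidence. MICB, ULBP1, CALR and PSMB9's ratio to TAP1 were named beside them. Locations and 3' UTRs came from GENCODE v29 and promoters from RefSeq (GRCh38.p14), a different build from hg19, and served for names, places and letters only. Alternatives used DESeq2 1.42.0, limma 3.58.1 (voom), other scalings, no filter, summed repeated symbols, a replicate block and each hairpin library left out. Leaving out both libraries numbered 1 and summing the TAP2 entries in the TAP1 ratio were added after seeing the data. Other steps used matplotlib 3.10.9, scipy 1.17.1, pandas 2.3.3 and numpy 2.4.6 under Python 3.11.15.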

Additional observations from a re-analysis of the deposited data

How the results depend on the processing

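HLA-C, HLA-E, B2M and TAP1 stayed lower in shFOXA2 past the threshold in 14 of 14 alternatives, with log2 fold changes of -0.37 to -0.33, -0.27 to -0.23, -0.35 to -0.25 and -0.47 to -0.40. HLA-B and TAPBP stayed short of it in 14 of 14. The calls of NLRC5 and ERAP1 were each lost in 5 of 14 (adjusted p 0.0019 to 0.153 and 0.011 to 0.1), TAP2 gained a call in 2 of 14 (adjusted p 0.00314 to 0.606), and no gene changed direction. Leaving out 1 hairpin library gave 4 to 6 of the 9 genes called against 6, 23 to 30 of the pathway genes against 32, and 5299 to 5872 of all genes against 6280. Leaving out both libraries numbered 1 gave 5, 28 and 5781. DESeq2 called 17 pathway genes (12 higher, 5 lower), 4 of the 9 genes and 4565 of all genes, and the cause was not tested. With replicate number as a block, 6 of the 9 genes, 31 pathway genes and 6139 of all genes were called. Over all genes tested, same-numbered libraries did not deviate together (correlations of -0.004, -0.047 and -0.005). Such a correlation cannot show an effect shared on few genes, so whether the numbers pair the libraries was not settled. Between the lines, 1098 genes lay past 4-fold, 2539 with a pseudocount of 0.1 CPM and 3595 past 2-fold, with 0 of the 9 genes under each. Ratios of the 9 genes between the lines kept their sign in 36 of 36 alternatives and moved beyond the counting interval in 3, all with total counts. NLRC5, with 36 to 100 counts per hairpin library, is limited by depth.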
